A study of Mus musculus with 6 samples.

Results

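The subunits of respiratory chain complexes I to IV were compared between the livers of SM and NZB mice. A gene was a member if a probe set paired with it alone carried a symbol starting with Nduf and one of the letters a, b, c, s or v and a digit, one of Sdha to Sdhd, a symbol starting with Uqcr, Cyc1, or a symbol starting with Cox and a digit from 4 to 8. This gave 65 of the 18193 genes measured, read by 134 probe sets, with 35 members in complex I, 4 in complex II, 9 in complex III and 17 in complex IV. Each gene was represented by its probe set with the highest mean over the 6 arrays. The study compared untreated female mice aged 8 weeks of 2 inbred strains, SM/J (SM, n = 3) and NZB/BinJ (NZB, n = 3), with 1 single-color array of liver RNA per mouse. All mice were weaned at 3 weeks onto chow and fasted for 4 hours, and their livers were perfused with 50 mL of sterile saline. The values are log2 expression, differences are NZB minus SM, and a fold is 2 to the power of the difference.

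Complexes I and II pass electrons from NADH and succinate to coenzyme Q, complex III hands them to cytochrome c, and complex IV, cytochrome c oxidase, passes them to oxygen. Complexes I, III and IV pump protons across the inner mitochondrial membrane, and ATP synthase uses the gradient. Most subunits are encoded in the nucleus, some complex IV subunits have isoforms restricted to muscle, lung or testis, and hepatocytes are rich in mitochondria.

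The array medians lay between 6.60 and 6.66. Hepatocyte markers were high in all mice, with albumin at 14.9 on every array. SM replicate 2 went against its label in one gene, Xist, the RNA of the inactive X chromosome, which read 7.32 there and 12.6 to 12.9 on the other arrays. The Y-linked genes read at most 5.67 on any array, and that reading served as the background level. Counts are therefore also given without SM replicate 2. B and plasma cell markers (4 of 6 higher in NZB, summed log2 level 9.48 to 9.61 in SM and 12.6 to 13.7 in NZB) and macrophage markers (4 of 7 higher and 1 lower, 12.5 to 12.7 and 12.9 to 13.2) moved with strain, none of these markers lay under the background level in both strains, and their part in the results was not tested. Of 5 endothelial markers 2 were higher and 1 lower, and the hepatocyte regulator Hnf4a and the erythroid gene Alas2 were lower, at -0.38 and -1.09. In bulk liver, fewer cells of a type and less RNA per cell cannot be told apart.

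Most subunit genes differed little between the strains. Of the 65 members, 3 were higher in NZB (Cox6b2, Ndufa12 and Ndufv3) and 9 were lower (Ndufs1, Ndufa5, Ndufb3, Ndufa6, Ndufs7, Sdha, Sdhd, Uqcrc2 and Cox7a1). A difference was called at an adjusted p under 0.05 by limma, with Benjamini-Hochberg adjustment over all 18193 genes. The 12 called members made up 18.5% of the 65, against 21.0% of all genes tested. By direction, 13.8% of members and 12.6% of all genes were lower, and 4.62% of members and 8.47% of all genes were higher, so the shares called lay near or under the background. The lower members differed by 1.17-fold to 1.35-fold. Cox6b2 alone passed 2-fold, which 1.56% of all genes did. Of the members, 30 lay within 0.1 of zero, and for 59 the 95% confidence interval lay wholly within 0.5 of zero in either direction, with a median standard error of 0.070.

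**Figure D1:**
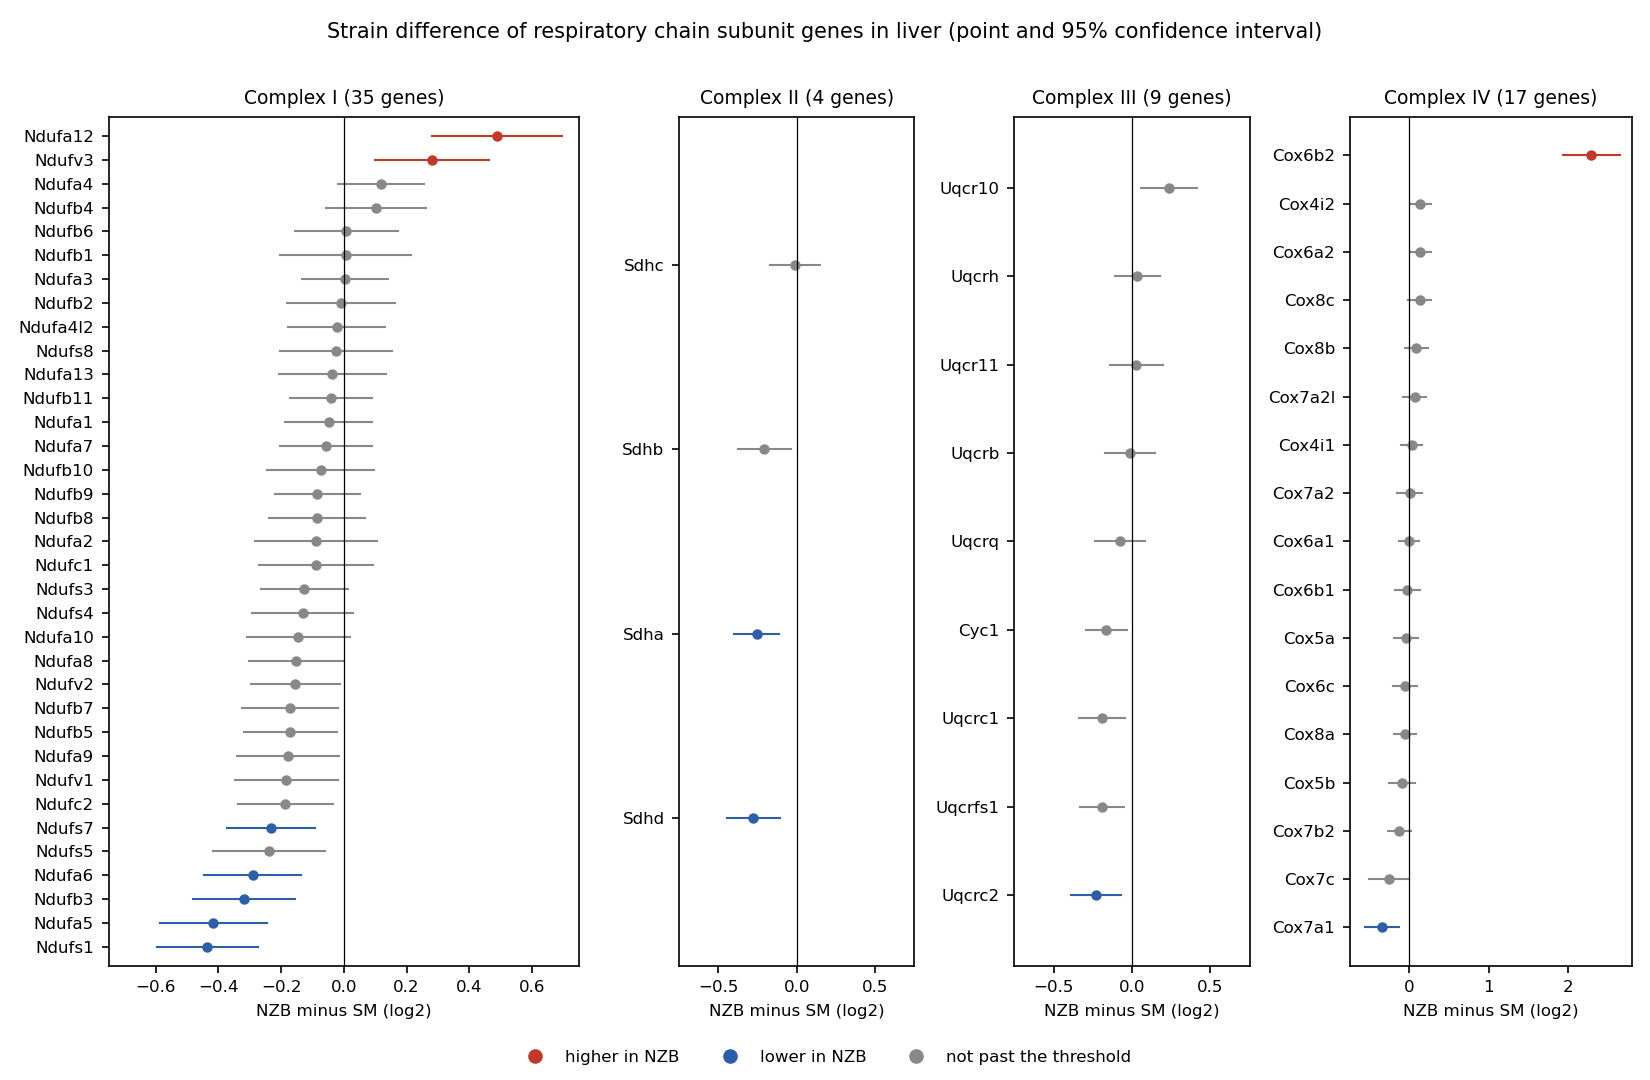
Difference in log2 expression (NZB minus SM, horizontal axis) of each of the 65 subunit genes with its 95% confidence interval, by complex; red and blue mark genes called higher and lower in NZB, and the complex IV panel has a wider axis. Cox6b2 at 2.29 stands alone, and most other points lie between -0.44 and 0.24.

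The small differences leaned downward. Of the members, 47 (72.3%) lay below zero, against 44.6% of all genes, and the median difference was -0.073 against 0.021. The arrays of the 2 strains did not overlap for 32 members (49.2%), against 39.4% of all genes. NZB lay above SM for 7 of the 65 members and below for 25 of the 65, against 3574 (19.6%) and 3585 (19.7%) of all 18193 genes. This lean moved with SM replicate 1, which was the highest of the SM arrays for 59 of the 65 members (90.8%), whereas it was highest for 39.7% of all genes. Relative to each gene's mean over the 6 arrays, the median over members was 0.14, 0.021 and -0.028 in SM replicates 1, 2 and 3 and -0.021, -0.057 and -0.027 in the NZB replicates. SM replicate 3 thus sat within the NZB range. Without SM replicate 1 the median difference was -0.019, and without SM replicate 3 it was -0.114.

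**Figure D2:**
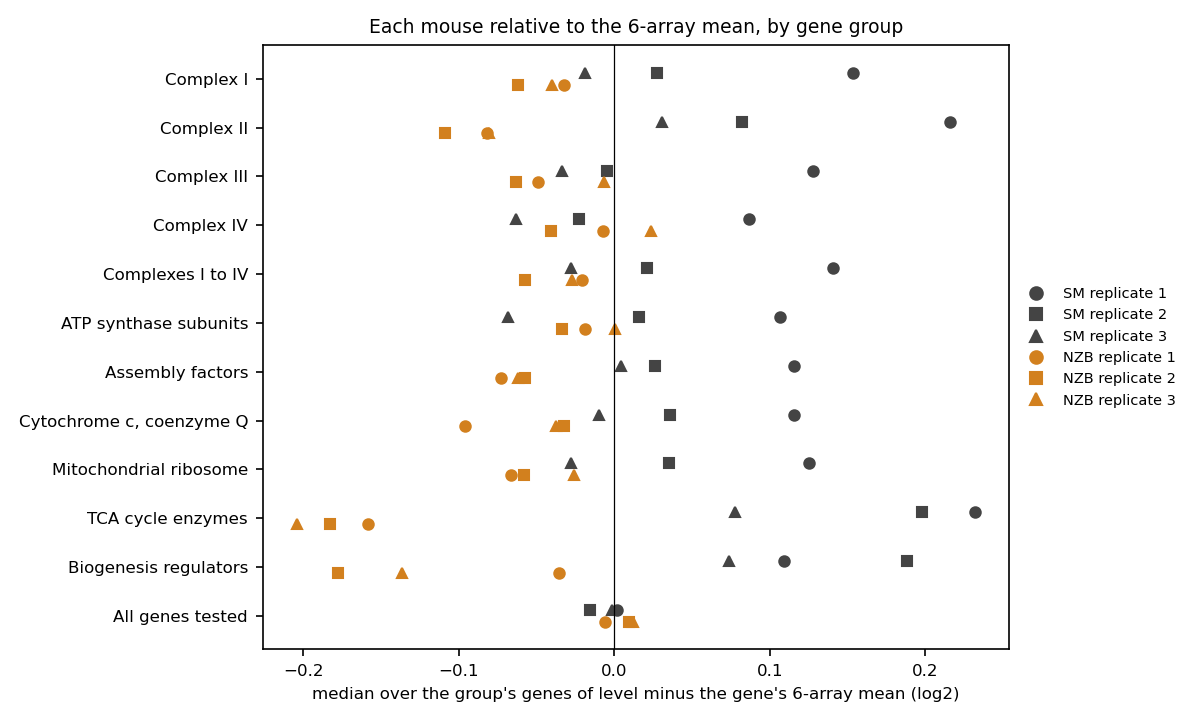
Median over each gene group of the level minus the gene's own mean over the 6 arrays (log2, horizontal axis), with 1 point per mouse. Among the groups drawn, which leave out the single mitochondrially encoded gene, SM replicate 1 lies farthest right in each except the biogenesis regulators and all genes, where it stands at 0.0015; the strains overlap for complexes III and IV, the 4 complexes together, ATP synthase, the mitochondrial ribosome and all genes, and not for the other groups.

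The counts of lower members also moved with single mice. They were 4 without SM replicate 1, 4 without SM replicate 2, 15 without SM replicate 3, 3 without NZB replicate 2 and 4 without NZB replicate 3. The shares of all genes called lower in these comparisons were 10.1%, 8.3%, 13.3%, 9.15% and 8.13%. Without SM replicate 2, 2 members were higher (4.77% of all genes) and the median was -0.080. Exact permutation over 3 and 3 mice could give no p under 0.1, so single genes were tested through the limma fit alone.

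Promoter sequences bear on the group because nuclear respiratory chain genes are known targets of NRF1, of ETS factors such as GABPA, of the estrogen-related receptors (ERR) and of YY1. RefSeq promoters of GRCm38.p6, from 250 bases before to 50 after a gene's start, were given for 51 of the 65 members. The NRF1 core GCGCANGCG stood on either strand in 11 of them (21.6%), against 7.03% of the 27025 genes with a promoter in the table. That comparison set was larger than the 18193 genes measured and was not restricted to them. The ETS motif CCGGAAG was also held by 11 (21.6%), against 9.93%. The YY1 motif AAGATGGC was held by 6 (11.8%, against 3.19%), and the ERR motif TCAAGGTCA by 1, Sdhd (1.96%, against 0.466%). The NRF1 core can match both strands at nearly the same place, the ETS and YY1 motifs can share the letters AAG, and a gene was counted once per motif. Among called members with a promoter, 4 of 10 held the NRF1 core (Ndufa5, Ndufa6, Sdha and Sdhd, all lower in NZB), and 7 of the 41 that were not called did. A match describes letters in a window of the reference genome and not a bound site, and the promoters of the SM and NZB strains themselves were not analysed here.

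Stretches of 60 bases from 3 of these lower members and from Cox6a1, which holds the core and did not differ, are shown so that the sites can be compared. All lie on the minus strand of GRCm38.p6, read 5′ to 3′, with the NRF1 core in capitals. The Ndufa5 stretch is chr6:24527683-24527742, Sdha is chr13:74350262-74350321, Sdhd is chr9:50603895-50603954 and Cox6a1 is chr5:115349042-115349101. The core shown starts 190 bases before one annotated start of Ndufa5 and 26 before another, 55 before that of Sdha, 79 before that of Sdhd and 117 before that of Cox6a1. Sdha holds further matches 10 and 98 bases before its start, and Cox6a1 holds further, overlapping ones at 161 and 162.
Ndufa5: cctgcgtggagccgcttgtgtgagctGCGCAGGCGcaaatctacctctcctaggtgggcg
Sdha: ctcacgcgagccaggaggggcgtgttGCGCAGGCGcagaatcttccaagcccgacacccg
Sdhd: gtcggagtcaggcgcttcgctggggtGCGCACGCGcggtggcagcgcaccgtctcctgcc
Cox6a1: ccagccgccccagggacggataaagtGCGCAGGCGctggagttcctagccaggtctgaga

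In complex I, 5 of 35 members were lower in NZB and 2 were higher, with a median difference of -0.089 and 28 members below zero. The lower count was 3 without SM replicate 2, NZB replicate 2 or NZB replicate 3 and 8 without SM replicate 3. Ndufs1, the largest subunit of the peripheral arm and the carrier of several of its iron-sulfur clusters, was lowest. The SM arrays read 11.06, 10.90 and 10.85 for Ndufs1 and the NZB arrays 10.45, 10.55 and 10.51. Every NZB mouse lay under every SM mouse, by 1.35-fold on average (-0.44, SE 0.072, adjusted p = 0.00284). Ndufa5, an accessory subunit of the peripheral arm, read 10.87, 10.63 and 10.67 in SM and 10.27, 10.30 and 10.36 in NZB. Its arrays did not overlap either, and it was 1.33-fold lower (-0.42, SE 0.076, adjusted p = 0.00471). A second Ndufa5 probe set gave -0.35 (adjusted p over all probe sets 0.00911). Ndufs1 and Ndufa5 kept their call under every alternative that was run for them.

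The other lower members of complex I differed less. Ndufb3, a subunit of the membrane arm, read 11.08, 10.99 and 10.85 in SM and 10.62, 10.66 and 10.68 in NZB (-0.32, SE 0.072, adjusted p = 0.0133). The strains did not overlap, and the call ended without SM replicate 2 (adjusted p = 0.0518). Ndufa6, an accessory subunit of the peripheral arm, read 12.25, 12.05 and 12.08 in SM and between 11.82 and 11.84 in NZB (-0.29, SE 0.069, adjusted p = 0.0164). Its 3 NZB arrays lay close together under all SM arrays, and its call ended without NZB replicate 2 or 3. Ndufs7, which carries the iron-sulfur cluster nearest to coenzyme Q, read 11.46, 11.37 and 11.39 in SM and 11.11, 11.20 and 11.21 in NZB (-0.23, SE 0.062, adjusted p = 0.0264). It did not overlap between strains, and a second probe set gave -0.25 (adjusted p over all probe sets 0.0482), but the call ended when any mouse other than SM replicate 3 was left out.

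Ndufa12 and Ndufv3, accessory subunits near the NADH-oxidizing end of complex I, were the members called higher. Ndufa12 read 11.29, 11.23 and 10.93 in SM and 11.63, 11.62 and 11.67 in NZB, with all NZB mice above all SM mice (0.49, 1.40-fold, SE 0.092, adjusted p = 0.00544). Its other probe sets did not share that direction. Over all probe sets, they gave -0.13 (adjusted p = 0.307), -0.30 (adjusted p = 0.0788) and, under the background level, -0.018, and the probe set that represents the gene carries a suffix for probes that may also read similar sequences. The mean of the 4 probe sets was no longer called, and without probe sets of that kind only the dim one was left. The direction of Ndufa12 is therefore uncertain. Ndufv3 read 12.20, 11.96 and 11.95 in SM and 12.29, 12.27 and 12.40 in NZB (0.28, 1.22-fold, SE 0.081, adjusted p = 0.0369). SM replicate 1 came near the NZB mice without reaching them, and the call ended when any mouse other than SM replicate 1 was left out and when array medians were aligned.

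The remaining catalytic subunits of complex I were not called. Ndufv1, which binds NADH and its flavin, gave -0.18 (adjusted p = 0.107), and a second Ndufv1 probe set gave -0.21 (adjusted p over all probe sets 0.0410). Its partner Ndufv2 gave -0.15 (adjusted p = 0.118). Ndufs3 gave -0.13 (adjusted p = 0.187), and Ndufs8, another iron-sulfur subunit, gave -0.025 (95% interval -0.20 to 0.15). Each of Ndufv1, Ndufv2 and Ndufs3 had all NZB arrays under all SM arrays, while those of Ndufs8 overlapped. The membrane arm subunits Ndufa1 and Ndufb9, the brightest uncalled members of complex I, gave -0.048 and -0.085. Over all 28 members of complex I that were not called, differences ran from -0.24 (Ndufs5, adjusted p = 0.0618) to 0.12 (Ndufa4). Ndufa4, now counted with complex IV by many authors, read 12.69 to 12.78 in SM and 12.81 to 12.89 in NZB (adjusted p = 0.209), and its hypoxia-inducible relative Ndufa4l2 read 6.81 to 6.96 and 6.82 to 6.93.

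**Figure D3:**
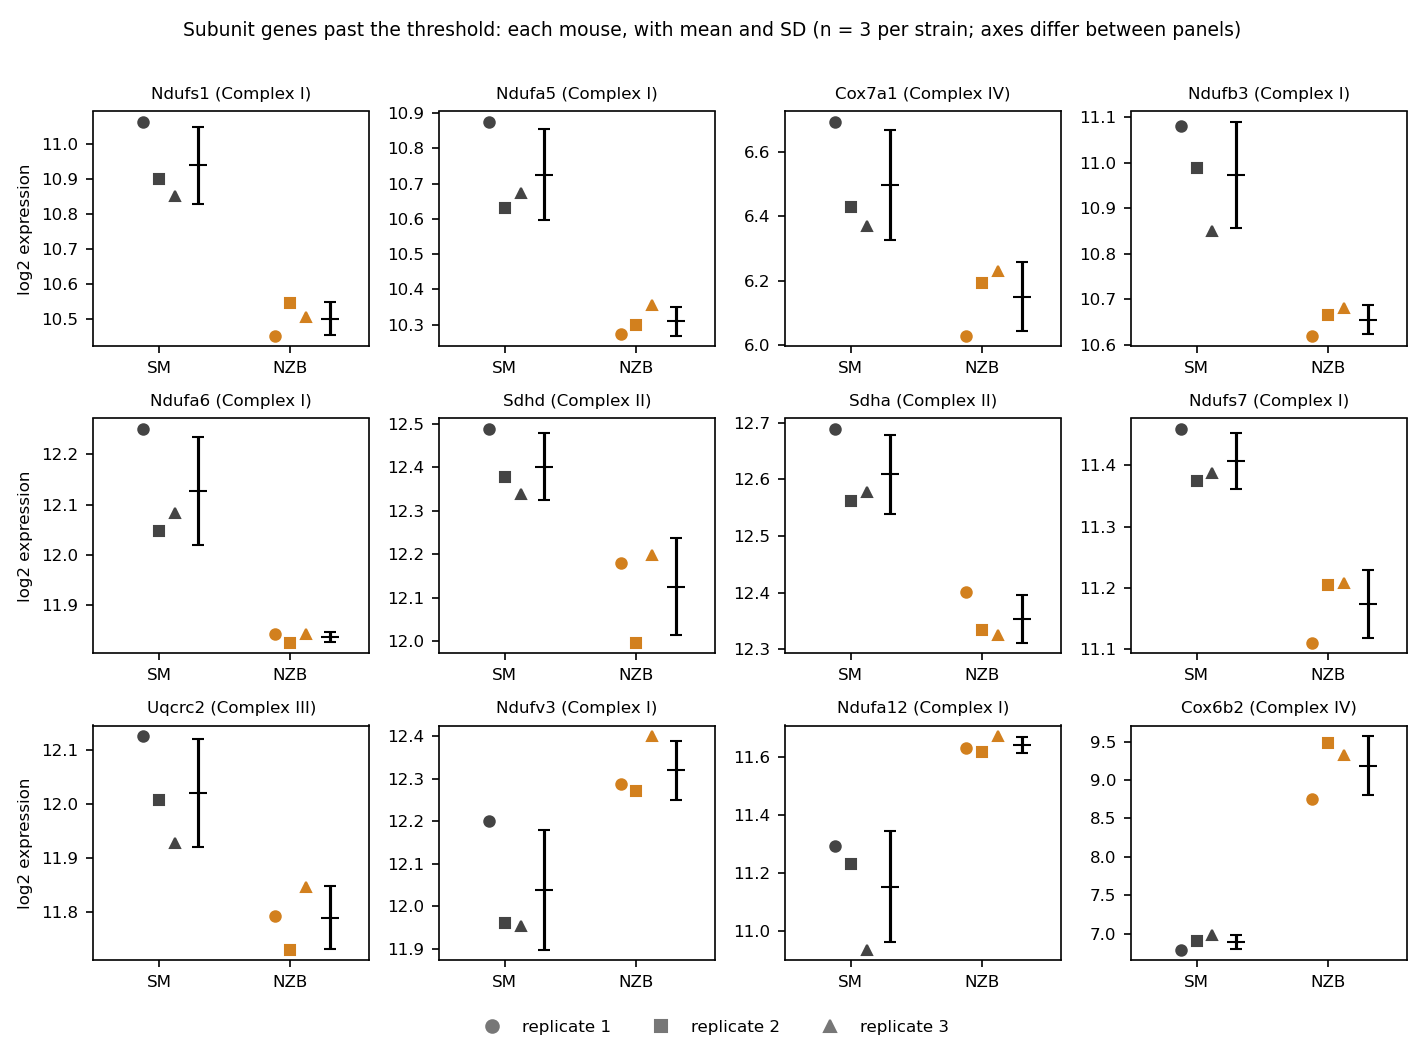
Log2 expression (vertical axis, a different range in each panel) of the 12 called subunit genes in each mouse, with the mean and SD of 3 mice per strain as bars. The strains do not overlap in any panel, and SM replicate 1 is the highest SM mouse in all panels except Cox6b2.

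Complex II, succinate dehydrogenase, had 2 of its 4 members lower in NZB, and its median difference was -0.23. Sdha, the flavoprotein that oxidizes succinate, read 12.69, 12.56 and 12.58 in SM and 12.40, 12.33 and 12.32 in NZB. The strains did not overlap, and NZB was 1.19-fold lower (-0.26, SE 0.064, adjusted p = 0.0200). Sdhd, one of the membrane anchors, read 12.49, 12.38 and 12.34 in SM and 12.179, 11.997 and 12.199 in NZB, again without overlap (-0.28, 1.21-fold lower, SE 0.076, adjusted p = 0.0298). The iron-sulfur subunit Sdhb was at -0.21 with no overlap and missed the threshold (adjusted p = 0.0836). The anchor Sdhc was at -0.012 (95% interval -0.17 to 0.15) with overlapping arrays. A second Sdhc probe set of nearly the same SM mean (11.73 against 11.74) gave -0.18 (adjusted p over all probe sets 0.242). The call of Sdha ended without SM replicate 1, NZB replicate 2 or NZB replicate 3, and that of Sdhd without SM replicate 1, SM replicate 2 or NZB replicate 2 and with the mean of its probe sets. Complex II thus had 1 called member without SM replicate 2 or NZB replicate 3 and none without SM replicate 1 or NZB replicate 2, while its median stayed between -0.27 and -0.18 whichever mouse was left out. It had 3 without SM replicate 3.

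Complex III had 1 of 9 members lower and none higher. These counts depended on the setting. With the mean of probe sets 4 were lower and the median moved from -0.079 to -0.163, array weights gave 3 lower and 1 higher, and Uqcr10 was the higher one there, after quantile normalization, with trended and robust variances and without SM replicate 1. Aligned medians, trended and robust variances and leaving out SM replicate 3 each gave 2 lower (14.2%, 12.6% and 13.3% of all genes). Uqcrc2, a core protein on the matrix side, read 12.13, 12.01 and 11.93 in SM and 11.79, 11.73 and 11.85 in NZB. All NZB mice lay under all SM mice, by 1.17-fold on average (-0.23, SE 0.071, adjusted p = 0.0456). A second probe set gave -0.25 (adjusted p over all probe sets 0.0456), and the call of the gene ended when any mouse other than SM replicate 3 was left out. The other core protein, Uqcrc1, and the electron carriers of the complex, the Rieske protein Uqcrfs1 and cytochrome c1 (Cyc1), also had non-overlapping arrays. They gave -0.19 (adjusted p = 0.0707), -0.19 (adjusted p = 0.0589) and -0.16 (adjusted p = 0.0794) and were not called, although Uqcrfs1 was called under 5 and Cyc1 under 2 of the 15 alternatives. The small subunits Uqcrb and Uqcrq gave -0.015 and -0.079 with overlapping arrays.

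The probe sets of Uqcr10, a small subunit of complex III, disagreed most. The one that represents the gene read 12.14, 11.93 and 11.86 in SM and 12.20, 12.20 and 12.24 in NZB (0.24, SE 0.079, adjusted p = 0.0624). A dimmer one read 9.93, 9.67 and 9.42 in SM and 5.96, 5.94 and 6.03 in NZB, a difference of -3.70 or 13.0-fold (adjusted p over all probe sets 3.03e-07), and the third gave -1.29 (adjusted p over all probe sets 0.00012). The NZB readings of the dimmer probe set lay just above the background level. The third probe set carries a suffix (_x_at) for probes that may read similar sequences. The brightest ends in _a_at, a suffix for several transcripts of the same gene, and the dimmer one carries neither. The parts of the transcript that each covers and strain variants under the probes were not analysed here. The direction of Uqcr10 is not settled by these arrays.

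Of all 134 member probe sets, 2 were higher (1.49%) and 18 lower (13.4%) in NZB, against 6.09% and 8.69% of all 45037 probe sets. The 69 probe sets that do not represent their gene included 10 lower ones and no higher one, and 49 had the sign of the representative. Apart from Uqcr10, the largest differences were in dim probe sets. One of Ndufb8, a membrane arm subunit, gave -1.06, with SM at 6.21 to 6.61 and NZB under the background level, so NZB was at least 1.74-fold lower, taking the background level as the NZB reading. One of Sdha gave -0.63 and one of Ndufs4, an accessory subunit of the NADH-oxidizing end, gave -0.47, whereas the bright probe sets of these 3 genes lay between -0.26 and -0.085.

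**Figure D4:**
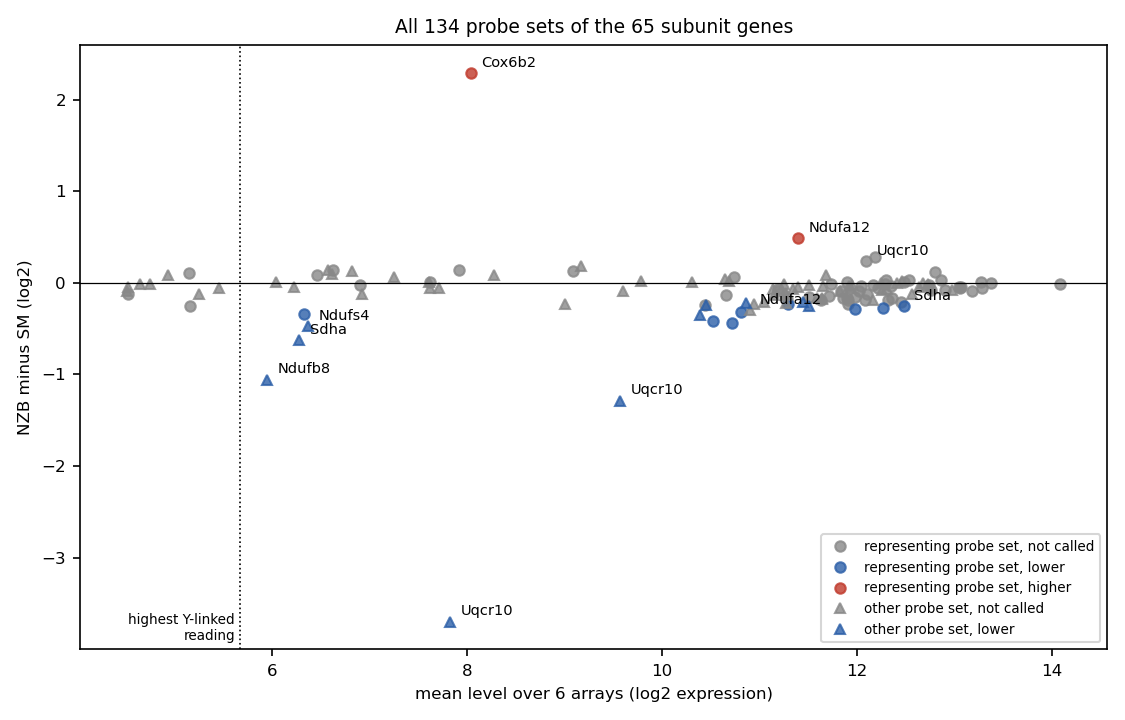
Difference (NZB minus SM, log2, vertical axis) against mean level over the 6 arrays (log2 expression, horizontal axis) for all 134 probe sets of the subunit genes, with calls adjusted over all probe sets; circles represent the gene and triangles are its other probe sets. Labels mark probe sets of Cox6b2 and of the genes whose probe sets disagree; the dimmer Uqcr10 probe set lies at -3.70, and most bright probe sets lie near zero.

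Complex IV, with 1 of 17 members higher and 1 lower, had a median difference of -0.003. That median turned to 0.008 after quantile normalization, to 0.0015 with array weights, to 0.0056 without dim genes, to 0.009 without NZB replicate 2 and to 0.030 without SM replicate 1. The lower count was 2 with array weights or without SM replicate 3. Both called members are isoforms best known from other tissues. Cox6b2, the testis isoform of subunit 6B, read 6.79, 6.91 and 6.98 in SM and 8.75, 9.48 and 9.33 in NZB. The lowest NZB mouse stood well above the highest SM mouse, and NZB was 4.89-fold higher (2.29, 95% interval 1.93 to 2.65, adjusted p = 2.49e-05). It was called under all 15 alternatives, with differences from 2.15 to 2.51. Cox6b2 was read by 1 probe set, without a suffix for similar sequences. Its widespread counterpart Cox6b1 read 12.65 to 12.86 in SM and 12.69 to 12.77 in NZB (-0.023, 95% interval -0.18 to 0.13).

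Cox7a1, the isoform of subunit 7A typical of heart and skeletal muscle, read 6.69, 6.43 and 6.37 in SM and 6.03, 6.19 and 6.23 in NZB. The arrays did not overlap (-0.35, 1.27-fold lower, SE 0.094, adjusted p = 0.0294), and the call ended when any mouse other than SM replicate 3 was left out. Of 8 skeletal muscle markers limma called 0 (2 at an unadjusted p under 0.05), 2 lay under the background level in both strains (Myh4 and Myh2), and their summed log2 level was 9.58 to 9.69 in SM and 9.63 to 9.78 in NZB. Of 5 heart muscle markers, 4 lay under the background level in both strains. One of these 4, Myh6, was called lower in NZB (-0.23, adjusted p = 0.0313), with SM at 5.35 to 5.49 and NZB at 5.19 to 5.22, and its part in the Cox7a1 result was not tested. Its widespread counterpart Cox7a2 gave 0.0056.

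The other tissue-restricted isoforms were not called. The lung isoform Cox4i2 gave 0.14 (adjusted p = 0.136) and the heart and muscle isoform Cox6a2 gave 0.14 (adjusted p = 0.133), both with all NZB mice above all SM mice. The muscle isoform Cox8b gave 0.088 and the testis isoform Cox8c gave 0.13, with overlapping arrays. The testis isoform Cox7b2 lay under the background level in every mouse. Cox7a2l, which joins complexes III and IV into supercomplexes, read 10.68 to 10.71 in SM and 10.69 to 10.84 in NZB (0.067, 95% interval -0.074 to 0.21). The bright general subunits Cox6a1 and Cox6c gave -0.003 and -0.053, with intervals of -0.13 to 0.13 and -0.21 to 0.10. Besides Cox7b2, Ndufb4 and Cox7c lay under the background level in both strains, so their small differences say little about their transcripts.

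Related gene groups were read from the same fit as counts, beside the 12.6% of all genes called lower and the 8.47% called higher. ATP synthase, the enzyme that uses the proton gradient, had 0 of 19 listed genes called by limma. Of these 19, which include its inhibitor Atpif1, 2 had an unadjusted p under 0.05, and the median was -0.019. Of the 13 subunits encoded in mitochondrial DNA, ND5 of complex I was measured, and it read 13.76 to 13.87 in SM and 13.90 to 13.96 in NZB (0.11, adjusted p = 0.230).

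**Figure D5:**
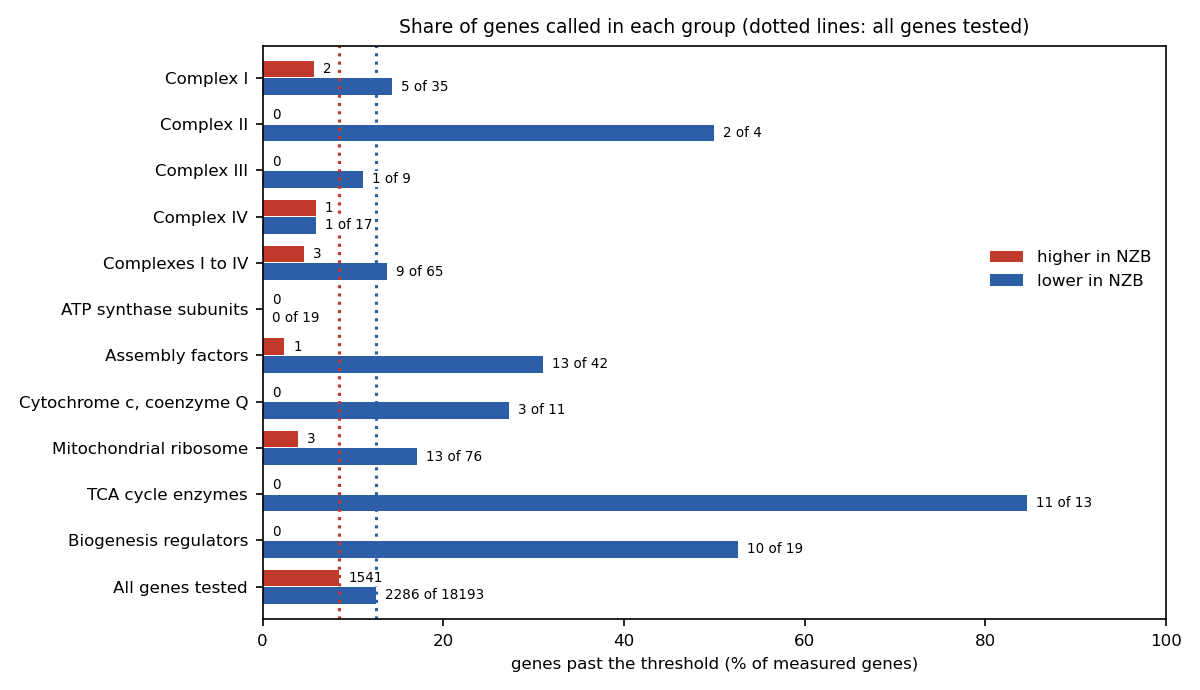
Share of measured genes called higher (red) and lower (blue) in NZB in each gene group, with counts beside the bars and dotted lines at the shares of all genes tested (8.47% and 12.6%). The 4 complexes together lie near the lines with 9 of 65 lower, the ATP synthase has none, and the TCA cycle enzymes have 11 of 13.

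Enzymes of the tricarboxylic acid (TCA) cycle, which supply NADH and succinate to the chain, were lower for 11 of 13 measured genes, with a median of -0.34 and all 13 below zero. Idh3a, the catalytic subunit of the NAD-dependent isocitrate dehydrogenase, read 9.83, 9.90 and 9.86 in SM and 9.18, 9.03 and 9.22 in NZB. Its arrays were far apart (-0.72, 1.65-fold lower, adjusted p = 0.000144). Yet it was not called without cross-hybridizing probe sets (-0.26, adjusted p = 0.0706) or with the mean of its probe sets (-0.12, adjusted p = 0.200). Idh2, the mitochondrial NADP-dependent enzyme, gave -0.58 (adjusted p = 0.00444) and was also not called without cross-hybridizing probe sets (-0.11, adjusted p = 0.282). Throughout, cross-hybridizing stands for all probe sets ending in _a_at, _s_at or _x_at. The suffix _a_at marks several transcripts of the same gene and not other similar sequences. The probe sets that represent Idh3a and Idh2 end in _a_at. The list had 7 lower genes without SM replicate 2 (8.3% of all genes). It had 5 of the 10 measured without cross-hybridizing probe sets (11.9% of all genes).

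Factors that assemble the complexes were lower for 13 of 42 measured genes and higher for 1, with a median of -0.11. Cox19, which helps deliver copper to complex IV, read 10.91, 10.96 and 10.91 in SM and 9.63, 9.84 and 9.83 in NZB. It was 2.23-fold lower with no overlap (-1.16, SE 0.072, adjusted p = 1.35e-05), and it was called under all 15 alternatives. Ndufaf4, a complex I assembly factor, read 9.59, 9.85 and 9.62 in SM and 9.04, 9.16 and 8.94 in NZB (-0.64, 1.56-fold lower, adjusted p = 0.00103). Pet100, which helps build complex IV, was the factor called higher (0.34, adjusted p = 0.00453), and the mean of its probe sets was not called (adjusted p = 0.268). The lower count was 7 without NZB replicate 3, 8 without NZB replicate 2 or SM replicate 1 and 9 without SM replicate 2. With array medians aligned it was 15 (14.2% of all genes). It was 7 of 35 without cross-hybridizing probe sets (11.9% of all genes).

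Among cytochrome c and the enzymes of coenzyme Q synthesis, 3 of 11 genes were lower, Coq3, Coq5 and Coq9, and none was higher. Coq3, a methyltransferase of that pathway, gave -0.69 (adjusted p = 0.000144), and the cytochrome c gene Cycs overlapped between strains (0.11, adjusted p = 0.413). Only 1 of the 11 was lower without NZB replicate 3, after quantile normalization or with the mean of probe sets. The shares of all genes called lower there were 8.13%, 9.76% and 10.4%. Mitochondrial ribosomal proteins, which serve the translation of the mitochondrially encoded subunits, were lower for 13 of 76 genes and higher for 3, with a median of -0.090. Mrpl47 was lowest (-0.60, adjusted p = 0.000551) and Mrps12 highest (0.56, adjusted p = 0.000274). The lower count was 8 without NZB replicate 2 or 3 and 9 without SM replicate 2. After quantile normalization 8 were lower and 9 higher (9.76% and 8.82% of all genes), with a median of -0.005.

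Regulators of mitochondrial biogenesis were lower for 10 of 19 genes and higher for none, with a median of -0.32. The coactivators Ppargc1a and Ppargc1b, which bind factors such as ERR and NRF1, differed most. Ppargc1a read 8.81, 9.02 and 8.45 in SM and 7.87, 7.78 and 7.37 in NZB, and every NZB mouse lay under every SM mouse (-1.09, 2.12-fold lower, SE 0.16, adjusted p = 0.00155). Ppargc1b read 9.82, 10.14 and 9.89 in SM and 8.75, 8.91 and 8.80 in NZB, with a wider gap (-1.13, 2.19-fold lower, SE 0.089, adjusted p = 4.93e-05). Both were called under all 15 alternatives, as were Esrra, the gene of ERR alpha (-0.34, adjusted p = 0.00485), and Tfam (-0.43, adjusted p = 0.0026). Tfam packages mitochondrial DNA and takes part in its transcription. Nrf1 read 7.59 to 7.68 in SM and 7.62 to 7.72 in NZB (0.038, 95% interval -0.10 to 0.18), and Gabpa gave -0.29 and missed the threshold (adjusted p = 0.0523). The list had 4 lower genes without SM replicate 2 or NZB replicate 2 and 5 without NZB replicate 3.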

How the data were processed

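Liver RNA of 6 mice was measured on single-color arrays. The deposited log2 values come from RMA, which corrects background, normalizes arrays and summarizes probes, per the submitters' processing notes; its version and settings were not given in the sources used here, and the log base was read from the value range (maximum 14.9). RMA compresses differences near background, and strain variants under probes were not analysed here. The table holds 45037 probe sets: 34945 name 1 gene, 932 several genes and 9160 no gene, and 34741 of the first kind matched RefSeq (GRCm38.p6) for current symbols. Symbols read by several-gene probe sets alone were not counted as members or tested, and readings of some are given under other observations.

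Strain differences were fitted with limma (3.58.1, under R 4.3.3) by lmFit, then eBayes without trend or robust estimation, in two-sided tests, and the fit was tested on simulated data. Only 3 arrays per strain limit the precision. Replicates are mice the labels call biological replicates. Summed marker levels are log2 of summed linear values. Members and lists were chosen with earlier results of these data known. Named genes were the called members, the 2 brightest uncalled ones per complex, tissue isoforms, catalytic subunits, members with opposing probe sets, the largest differences of each related list, main regulators and sex-check genes. Others named were chosen after their values were seen. Mice were treated as unpaired. Correlations of deviations were 0.040, -0.072 and 0.050 for same replicate numbers and -0.106 to 0.085 for different ones. With 3 mice per strain they cannot exclude pairing by number. Alternatives changed scaling, variance model, array weights, probe set choice and filters, added the block or left out a mouse.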

Additional observations from a re-analysis of the deposited data

How the results depend on the processing

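Over 52 named genes and their alternatives, 672 of 771 results kept their direction and side of the threshold, 54 lost a call, 20 gained one and 25 changed sign. Higher members numbered 1 of 52 without cross-hybridizing probe sets (7.46% of all genes). They numbered 2 to 4 of 65 when a mouse was left out (4.77% to 7.93% of all genes). Lower members numbered 14 of 65 with array weights, where 15% of all genes were lower. When a mouse was left out, 3 to 15 of 65 were lower (8.13% to 13.3% of all genes). Counted as probe sets and not as members, 18 of 134 were lower, against 8.69% of all probe sets. Genes called numbered 2377 to 3856 of 18193 when a mouse was left out (13.1% to 21.2%). Probe sets called numbered 6659 of 45037 (14.8%). The median of members stayed below zero in all settings, from -0.114 to -0.019 when a mouse was left out. With the replicate block, 2 members were higher and 6 lower, against 7.32% and 11.6% of all genes, and 3436 genes were called (18.9%). Ndufs7, Uqcrc2, Cox7a1 and Ndufv3 lost their call there. Whether the replicate numbers pair the mice could not be told from these data.

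Signs changed with quantile normalization for Sdhc (0.012) and Cox6a1 (0.0084), with array weights for Cox6a1 (0.012) and Ndufa4l2 (0.019), with the mean of probe sets for Uqcrq (0.0056), Ndufs8 (0.019), Uqcr10 (-1.58) and Nrf1 (-0.054), and without cross-hybridizing probe sets for Ndufa12 (-0.018), Uqcrq (0.13), Ndufs8 (0.012) and Uqcr10 (-3.70). When a mouse was left out, Sdhc ran from -0.077 to 0.026, Uqcrb from -0.064 to 0.026, Cox6a1 from -0.020 to 0.0087, Ndufa4l2 from -0.074 to 0.011 and Ndufs8 from -0.10 to 0.041. Apart from the probe set choice and fewer arrays, the cause was not tested. Signal near background limits Ndufb4, Cox7c and Cox7b2.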

Other observations

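Probe sets paired with several genes at once read more subunits of complex I. The brighter of those shared by Ndufb4 and its copies Ndufb4b and Ndufb4c read 11.82, 11.61 and 11.42 in SM and 11.49, 11.38 and 11.50 in NZB, with overlap, although the probe set paired with Ndufb4 alone lay under the background level. The one shared by Ndufs6 and Ndufs6b read 11.71, 11.52 and 11.43 in SM and 11.49, 11.38 and 11.59 in NZB, with overlap. The one shared by Ndufs5 and Ndufs5-ps read 10.11, 10.12 and 9.85 in SM and 9.96, 9.95 and 9.92 in NZB, also with overlap. Of those shared by Ndufa11 and Ndufa11b, the brighter read 11.33, 11.03 and 11.05 in SM and 11.005, 10.991 and 10.950 in NZB, with all NZB mice lower, and the dimmer read 6.506, 6.501 and 6.634 in SM and 6.511, 6.537 and 6.506 in NZB, with overlap.

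The genes next to Cox6b2, Uqcr10 and Ndufa12 on their chromosomes were read after the values of these members were seen. Kmt5c, a histone methyltransferase gene beside Cox6b2, was higher in NZB (0.39, adjusted p = 0.00919), as were 8.47% of all genes. Fam71e2, on the other side of Cox6b2, was not measured. Tmem150b (0.26, adjusted p = 0.0971) and Il11 (0.16, adjusted p = 0.244) were not called. Of the genes next to Uqcr10, Ascc2, Zmat5 and Cabp7 lay at 0.019, 0.012 and -0.0094, and Mtmr3 at -0.23 (adjusted p = 0.0528). Next to Ndufa12, Tmcc3 was lower (-0.30, adjusted p = 0.0167), as were 12.6% of all genes. Nr2c1 (0.27, adjusted p = 0.0571), Cep83 (-0.20, adjusted p = 0.0618) and Fgd6 (0.16, adjusted p = 0.254) were not called.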
